A study of Mus musculus with 13 samples.

Results

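The genes described here encode the machinery that copies DNA in S phase. They are 43 genes chosen by name from 55774 gene entries of the count table, and all 43 were among the 15781 entries with enough counts to be tested. The rule that picks them names the genes and uses no measured value.

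The T cells were CD4+ cells of female NOD/ShiLtJ mice that carry the transgenes TcraBDC2.5 and TcrbBDC2.5. Every library, T cells alone included, therefore comes from cells with the BDC2.5 receptor, which recognises a beta-cell antigen, rather than from a natural repertoire. Naive splenic T cells were profiled alone (4 libraries) or after 96 hours with islet macrophages. The macrophages came from NOD donors injected at 4 weeks of age with buffer (4 libraries, the control co-culture) or with a single low dose of streptozotocin, abbreviated STZ, a toxin of beta cells (5 libraries, the STZ co-culture). Islets were taken 10 days after the injection, at 5.5 weeks of age, their macrophages were enriched with magnetic beads, and the sort that followed kept live cells positive for CD45, Thy1.2 and CD4. The labels name 2 batches by day. All 4 libraries of T cells alone, control replicates 1, 2 and 4 and STZ replicates 1 and 5 were of day 1, and control replicate 3 and STZ replicates 2, 3 and 4 were of day 2. The labels call the replicates biological without saying whether each came from its own animal, so a p-value here measures the spread between these libraries. They also do not say whether the T cells alone were cultured, so culture and macrophages cannot be told apart in a comparison with them.

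A resting naive T cell sits outside the cell cycle and has little of this machinery. When it is activated and divides, origins are first licensed: ORC, CDC6 and CDT1 load the ring-shaped MCM2-7 helicase onto DNA. In S phase CDC45 and the GINS complex turn that ring into an active helicase, primase with polymerase alpha starts each strand, polymerases delta and epsilon extend it on the sliding clamp PCNA, and FEN1 and LIG1 join the fragments of the lagging strand. Many of these genes are textbook targets of the E2F transcription factors, which the retinoblastoma protein holds in check in resting cells.

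The DNA at the start sites of these genes is given first, since E2F letters occur there in some of them. A RefSeq window from 250 bases before to 50 bases after the start site (GRCm38.p6) was found for 35 of the 43 genes. It was searched on both strands for 4 spellings of the E2F site, TTTCGCGC, TTTGGCGC, TTTCCCGC and TTTGCCGC, whose matches can overlap each other on opposite strands. At least 1 spelling occurred in 13 of 35 members (37.1%) and in 704 of 27025 genes with a window (2.6%). The CCAAT letters were in 62.9% of members and 41.1% of genes, the E-box CACGTG in 20% and 8.09%, and the letters TTTGAA of the cell cycle homology region in 14.3% and 20.2%. Such a match describes letters only. The stretches below are shown because they hold E2F letters outside any annotated exon and before the RefSeq start site of members whose values are described later. Capitals mark the matches.
Mcm6 (chr1:128359725-128359835, minus strand): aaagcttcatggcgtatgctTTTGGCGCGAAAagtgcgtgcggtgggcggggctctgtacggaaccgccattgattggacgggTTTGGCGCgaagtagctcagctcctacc
Mcm5 (chr8:75109336-75109387, plus strand): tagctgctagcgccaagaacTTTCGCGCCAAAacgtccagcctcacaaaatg
Cdc6 (chr11:98907993-98908040, plus strand): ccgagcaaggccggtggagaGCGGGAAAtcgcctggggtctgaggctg
Pola1 (chrX:93632266-93632313, minus strand): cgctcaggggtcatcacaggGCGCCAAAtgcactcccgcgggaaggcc
In the Mcm6 stretch 2 of the 3 matches overlap on opposite strands, at 110 and 106 bases before the start site, and the third begins 47 bases before it. The overlapping pair in Mcm5 starts 153 and 149 bases before the start. Cdc6 and Pola1 have 1 match each, both on the reverse strand at 138 bases before the start site. The Cdc6 stretch lies before its RefSeq start and inside the GENCODE gene, whose first transcript starts at 98907801. Of these genes, Mcm5, Cdc6 and Pola1 rose in both co-cultures, and Mcm6 was called in the STZ co-culture and not in the control co-culture.

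Levels are given in CPM, a gene's counts relative to the TMM-scaled total of its library. Total estimated counts per library ran from 17312119 to 61267763. The T cell identity genes were detected in every group (11 of 11). All 7 naive T cell genes fell and all 7 activation genes rose in both co-cultures against T cells alone. Macrophage markers summed to 1.59 to 5.89 CPM in T cells alone, 5.76 to 56.4 CPM in the control and 23.7 to 116 CPM in the STZ co-culture, Cd14 and Clec4n being at 0 in T cells alone. Islet endocrine markers summed to 0.686 to 153 CPM in the STZ co-culture and to at most 1.70 CPM in the other groups. The high values were those of STZ replicates 2 and 4, with Gcg at 67.3 and 85.0 CPM. Several libraries stood apart for members. Control replicate 3, the only control of day 2, was the highest co-culture for 24 of 43 members and the lowest for 9 (32% and 22% of all tested genes), and STZ replicate 1 was the lowest for 24 (26.1% of all tested genes). STZ replicates 1 and 5 and replicate 2 of T cells alone shared high values of a few members.

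The first question was what 96 hours with islet macrophages did to the replication genes of naive T cells. The machinery was almost entirely higher in both co-cultures. Its 43 genes held 0.242% to 0.274% of all counts in T cells alone, 1.17% to 1.33% in the control co-culture and 1.16% to 1.33% in the STZ co-culture, so that the 9 co-culture libraries lay apart from the 4 others. In the control co-culture 38 of 43 members rose and none fell (edgeR quasi-likelihood test, adjusted p below 0.05), where 23.1% of all tested genes rose and 22% fell. In the STZ co-culture 41 of 43 rose and none fell, against 20.8% higher and 22.3% lower of all tested genes. The median log2 fold change of the members was 2.94 and 2.89, beside -0.13 and -0.05 over all genes. Both comparisons share the libraries of T cells alone. In bulk RNA, a larger share of cells with a transcript and more of it per cell cannot be told apart.

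**Figure D1:**
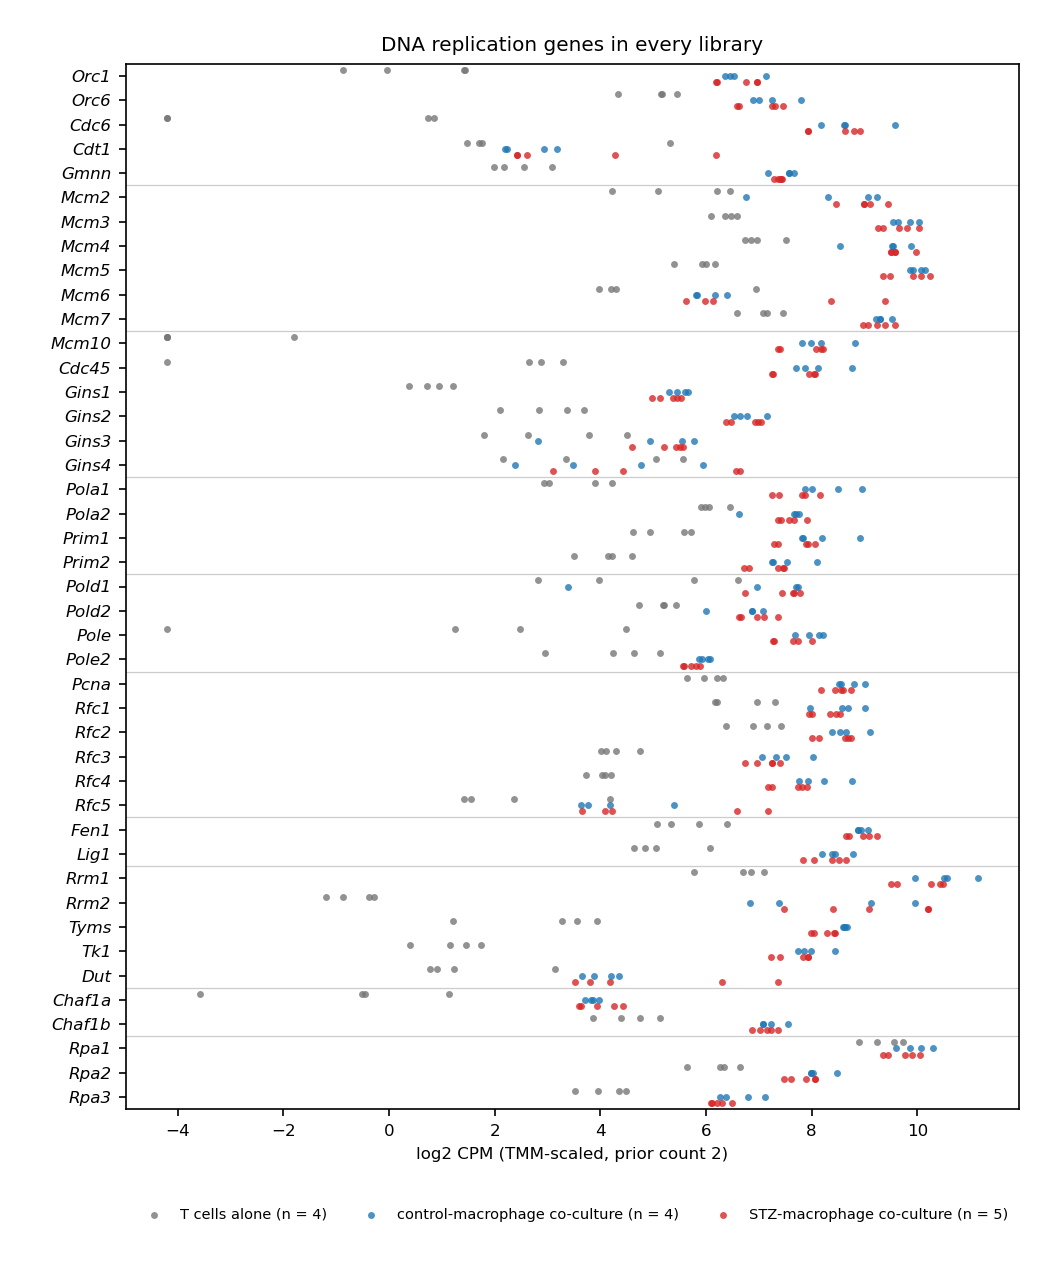
Level of each of the 43 replication genes in every library, as log2 CPM (prior count 2), with 1 point per library and grey lines between functional groups. Co-culture points (blue control, red STZ) lie to the right of T cells alone (grey) for most genes, while Cdt1, Gins4 and Rpa1 overlap and single libraries stand apart for Cdt1, Mcm6, Rfc5 and Dut.

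For 36 members every control co-culture library lay above every library of T cells alone (22.2% of all tested genes did), and for 38 members every STZ library did (21.7%). No member lay below without overlap, where 17.7% of all tested genes did in the control and 17.9% in the STZ co-culture. The exceptions in both were Cdt1, Mcm6, Gins4, Rfc5 and Rpa1, with Gins3 and Pold1 added in the control co-culture. Without STZ replicates 1 and 5 and replicate 2 of T cells alone, left out together after the data had been seen, 41 members rose in the control and 38 in the STZ co-culture, where Cdt1 was gained and Cdc45, Gins4, Pole and Rfc1 (1.33, adjusted p = 0.0851, edgeR) were lost. Without control replicate 3, 39 rose in the control co-culture. Of 13 tested macrophage markers, 5 rose in the control and 7 in the STZ co-culture, and their part in these changes was not tested.

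**Figure D2:**
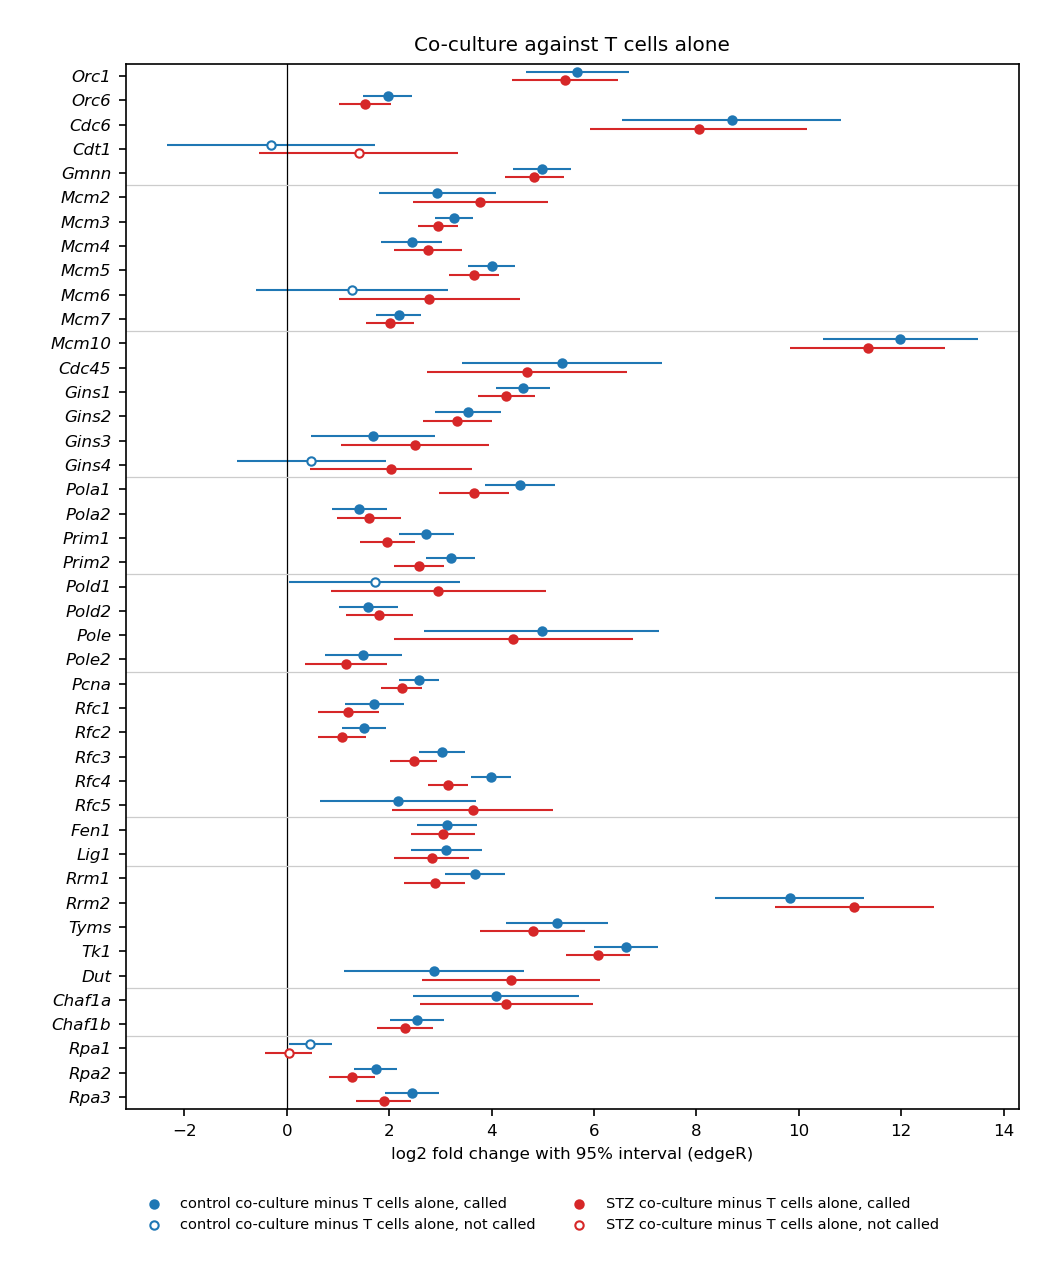
Log2 fold change of each member against T cells alone, with its 95% interval from edgeR, for the control co-culture (blue) and the STZ co-culture (red). Filled points passed an adjusted p of 0.05. Almost all intervals lie right of 0, and the open points are Cdt1 and Rpa1 in both comparisons and Mcm6, Gins4 and Pold1 in the control co-culture.

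Origin recognition and licensing came first. Cdc6, the loader of the MCM ring, was close to absent in T cells alone, at 0, 0, 1.61 and 1.76 CPM in replicates 1 to 4. It stood at 389, 288, 759.8 and 394 CPM in control replicates 1 to 4 and at 244, 482, 447, 394 and 243 CPM in STZ replicates 1 to 5. No co-culture library came near a library of T cells alone. The log2 fold changes were 8.69 (SE 0.99, adjusted p = 2.12e-05, edgeR) and 8.05 (SE 0.98, adjusted p = 3.84e-05), and they rest on few counts in T cells alone. Orc1, the ORC subunit made in G1, rose as well (5.68 and 5.44). Its range was 0.489 to 2.66 CPM in T cells alone, 82.3 to 139.8 CPM in the control and 72.8 to 125 CPM in the STZ co-culture. Gmnn, the inhibitor of CDT1 that prevents a second round of licensing, rose by 4.99 and 4.83, and Orc6 by 1.97 and 1.52, all on the log2 scale.

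Cdt1 was the exception among licensing genes. This partner of CDC6, which is destroyed in S phase, stood at 2.73, 40.05, 3.31 and 3.22 CPM in T cells alone and at 7.54, 9.04, 4.504 and 4.62 CPM in the control co-culture. In the STZ co-culture it was at 73.4, 5.28, 6.04, 5.301 and 19.4 CPM in replicates 1 to 5. The groups overlapped because replicate 2 of T cells alone and STZ replicates 1 and 5 stood far above the others. The log2 fold changes of -0.31 (adjusted p = 0.805, edgeR) and 1.40 (adjusted p = 0.226) did not pass. Without replicate 2 of T cells alone they were 1.69 (adjusted p = 0.0422) and 3.61 (adjusted p = 0.000889), so 1 library decides whether Cdt1 was called. The size of the STZ value also rests on STZ replicates 1 and 5. Without them as well it was 1.83 (adjusted p = 0.0453, edgeR).

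The MCM2-7 ring was mostly induced, with 5 of 6 subunits higher in the control and 6 of 6 in the STZ co-culture. Mcm5 stood at 72.2, 41.8, 63.9 and 60.3 CPM in T cells alone, at 1139, 926, 1072 and 964 CPM in the control and at 651, 1207, 1075, 969 and 716 CPM in the STZ co-culture, and every co-culture library was far above. Its log2 fold changes were 4.00 (SE 0.22, adjusted p = 4.67e-08, edgeR) and 3.65 (SE 0.22, adjusted p = 1.98e-07). Mcm3 (3.27 and 2.96), Mcm4 (2.44 and 2.76) and Mcm7 (2.18 and 2.02) rose too, and Mcm2 had the largest value of the ring in the STZ co-culture (2.94 and 3.78). Mcm2 varied more between co-culture libraries than these 4 partners, at 606, 535, 108 and 317 CPM in control replicates 1 to 4 and 508, 698, 354, 507 and 549 CPM in STZ replicates 1 to 5.

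Mcm6 was uneven across libraries. It was at 18.4, 124, 19.6 and 15.6 CPM in T cells alone, 56.5, 72.1, 84.2 and 56.3 CPM in the control and 671, 48.9, 69.7, 62.8 and 329.9 CPM in the STZ co-culture. STZ replicates 1 and 5 were the highest of all libraries, replicate 2 of T cells alone came next, and the other 7 co-cultures lay between 48.9 and 84.2 CPM. The log2 fold change was 1.27 (adjusted p = 0.247, edgeR) in the control co-culture, or 2.59 (adjusted p = 0.0121) without replicate 2 of T cells alone. In the STZ co-culture it was 2.79 (SE 0.82, adjusted p = 0.015), or 1.96 (adjusted p = 0.0719) without STZ replicate 1. Without STZ replicates 1 and 5 and replicate 2 of T cells alone it was 1.84 (adjusted p = 0.000129) in the control and 1.65 (adjusted p = 0.0098) in the STZ co-culture. Per kilobase of annotated exons, Mcm6 was at 3.76% to 12.7% of the median of the other 5 subunits in those 7 co-cultures, at 88.1% and 40.5% in STZ replicates 1 and 5, and at 14.1% to 122% in T cells alone.

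**Figure D3:**
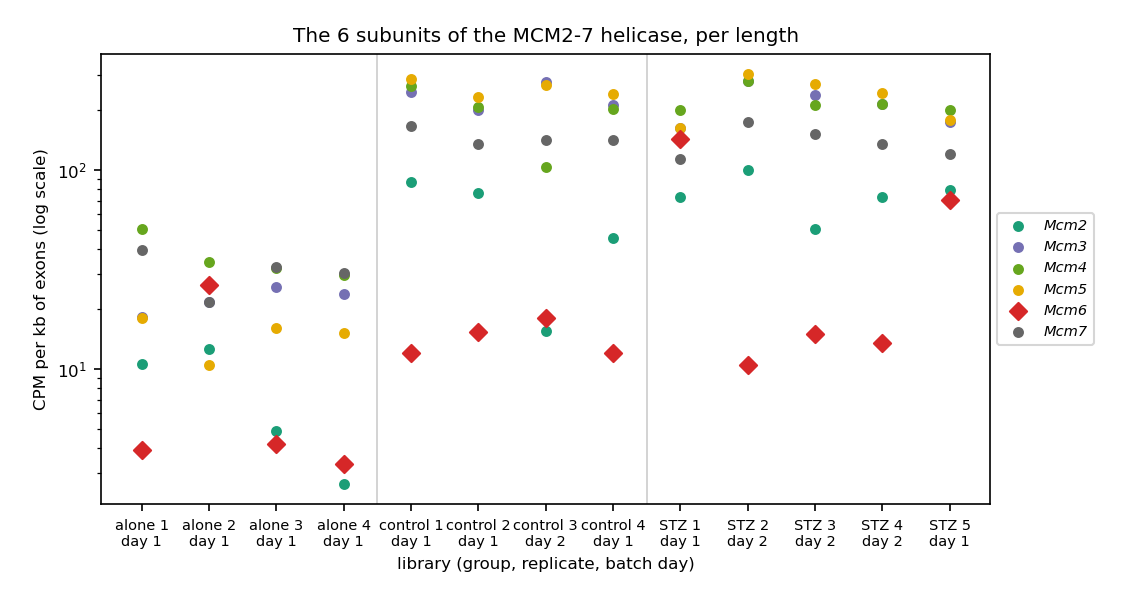
CPM per kilobase of annotated exons (log axis) of the 6 MCM2-7 subunits in each of the 13 libraries, labelled by group, replicate and batch day. Mcm6 (red diamonds) lies below its partners in 7 co-cultures (10.5 to 18.04), apart from Mcm2 in control replicate 3 (15.5), near them in STZ replicate 1 (144) and close to Mcm2 in STZ replicate 5 (70.7).

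The largest fitted fold change of all members was that of a helicase activation gene. Mcm10, which helps start the CMG helicase (CDC45, MCM2-7 and GINS), had no count in replicates 1 to 3 of T cells alone and 0.234 CPM in replicate 4. It was at 253, 224, 451 and 289 CPM in the control and at 169, 299, 288, 271 and 164 CPM in the STZ co-culture. The fitted log2 fold changes of 11.98 and 11.35 depend on the small count added for genes near 0. Cdc45, absent in replicate 1 of T cells alone and at 6.22 to 9.73 CPM in replicates 2 to 4, reached 209 to 434 and 152 to 268 CPM (5.38 and 4.69). Without STZ replicates 1 and 5 and replicate 2 of T cells alone its STZ value was 4.97 with an adjusted p of 0.0853 by edgeR.

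Of the 4 GINS subunits, 3 rose in the control co-culture and all 4 in the STZ co-culture. Gins1 (4.61 and 4.29) and Gins2 (3.53 and 3.33) rose with narrow ranges, at 39.3 to 50.2 and 91.9 to 143 CPM in the control co-culture. Of the exonic bases of Gins2, 67.3% lie under Gse1 on the other strand, and the library kit keeps no strand, so reads of that pair cannot be separated. Gins3 rose less (1.68, adjusted p = 0.0272, and 2.50, adjusted p = 0.00905, edgeR), and its control call was lost without replicate 3 of T cells alone (adjusted p = 0.0601), control replicate 1 (0.0666) or control replicate 2 (0.0781). Gins4 was at 33.1, 47.5, 10.2 and 4.42 CPM in T cells alone, 27.1, 61.1, 5.18 and 11.1 CPM in the control and 100.4, 21.5, 8.55, 14.8 and 94.4 CPM in the STZ co-culture, and the groups overlapped. Its values were 0.48 (adjusted p = 0.58) and 2.03 (adjusted p = 0.0394, edgeR). The STZ call of Gins4 held in 5 of 19 alternatives. It was lost without STZ replicate 1, 2, 4 or 5 or replicate 3 or 4 of T cells alone (adjusted p 0.0537 to 0.093). It was also lost with library totals (adjusted p = 0.0728, edgeR), with no day term (0.378) and with the 2 groups alone (0.0561).

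All 4 genes of primase and polymerase alpha rose. Pola1, the catalytic subunit that lays the first DNA, was at 7.58, 8.13, 18.7 and 14.8 CPM in T cells alone, 258, 234, 497 and 359.9 CPM in the control and 166, 286, 236, 225 and 152 CPM in the STZ co-culture, again without overlap. Its log2 fold changes were 4.55 (SE 0.32, adjusted p = 4.28e-07, edgeR) and 3.65 (SE 0.32, adjusted p = 2.73e-06). Its accessory subunit Pola2 changed least, by 1.42 (adjusted p = 0.000561) and 1.60 (adjusted p = 0.00068). The primase subunits Prim1 (2.73 and 1.96) and Prim2 (3.20 and 2.58) lay between them.

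Among the replicative polymerases, Pole, the catalytic subunit of the leading-strand polymerase epsilon, changed most. It was at 0, 2.31, 5.55 and 22.2 CPM in T cells alone, a spread from no count to 22.2 CPM, and at 206 to 296 and 154 to 258 CPM in the co-cultures (4.98, SE 1.06, adjusted p = 0.0022, and 4.42, SE 1.07, adjusted p = 0.00522, edgeR). Without STZ replicates 1 and 5 and replicate 2 of T cells alone the STZ value was 4.66 (adjusted p = 0.144). Pole2, its second subunit, changed least (1.49, adjusted p = 0.00389, and 1.16, adjusted p = 0.024), and its STZ call was lost without replicate 4 of T cells alone (0.0525), STZ replicate 1 (0.0615) or STZ replicate 5 (0.0692). Pold2, of polymerase delta, rose by 1.59 and 1.81.

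Pold1, the catalytic subunit of polymerase delta, varied within groups. It stood at 97.7, 54.7, 15.7 and 7.02 CPM in T cells alone and at 209, 213, 10.5 and 125 CPM in the control co-culture, where replicate 3 was below 3 of the 4 libraries of T cells alone. In the STZ co-culture it was at 204, 220.4, 107, 174 and 201 CPM. The control difference of 1.71 was not called (adjusted p = 0.0875, edgeR), and was 2.14 (adjusted p = 0.0234) without control replicate 3 and 2.50 (0.0251) without replicate 1 of T cells alone. The STZ difference of 2.96 was called (SE 0.97, adjusted p = 0.0259), and the call was lost without a filter on low counts (0.073), with the 2 groups alone (0.0516) and with a replicate block (0.087).

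All 6 clamp and clamp loader genes rose in both co-cultures. Rfc4, a subunit of the RFC complex that loads the clamp, was at 16.3, 13.2, 17.05 and 18.3 CPM in T cells alone, and its co-culture values follow below (3.99, SE 0.18, adjusted p = 9.67e-09, and 3.15, SE 0.18, adjusted p = 9.33e-08, edgeR). Pcna, the clamp itself, was at 49.8 to 80.5 CPM in T cells alone, 368 to 514 CPM in the control and 289 to 427 CPM in the STZ co-culture (2.58 and 2.24). The annotation lists pseudogene copies of it that could take reads. Rfc3 rose by 3.04 and 2.48 and Rfc1, the large subunit, by 1.71 and 1.21. Rfc2 changed least (1.51, adjusted p = 7.03e-05, and 1.07, adjusted p = 0.00152). Rfc5 was at 5.13, 18.05, 2.86 and 2.605 CPM in T cells alone, 18.2, 42.2, 13.5 and 12.4 CPM in the control and 145, 18.6, 12.5, 17.01 and 95.8 CPM in the STZ co-culture, where replicates 1 and 5 were again the highest. Its values were 2.17 (adjusted p = 0.0238) and 3.63 (adjusted p = 0.00149), the latter 3.39 (adjusted p = 0.0197) without STZ replicates 1 and 5 and replicate 2 of T cells alone, and the control call was lost without replicate 1 (0.0501) or 4 (0.0505) of T cells alone or control replicate 2 (0.0784).

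Both genes that join Okazaki fragments rose. Fen1, the flap endonuclease, was at 53.97 ± 22.7 CPM (SD, n = 4) in T cells alone, 492 ± 29.4 CPM (n = 4) in the control and 494 ± 83.5 CPM (n = 5) in the STZ co-culture. It changed by 3.14 (SE 0.27, adjusted p = 2.34e-06, edgeR) and 3.04 (SE 0.29, adjusted p = 5.39e-06). Of its exonic bases, 84.2% lie under other genes, so the split of reads is uncertain. Lig1, DNA ligase 1, was at 38.6 ± 19.6 CPM in T cells alone, 352 ± 62.6 CPM in the control and 319 ± 71.5 CPM in the STZ co-culture (3.12 and 2.83, adjusted p = 8.9e-06 and 3.45e-05).

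The supply of deoxynucleotides changed strongly. Rrm2, the regulatory subunit of ribonucleotide reductase and the one whose level follows S phase, was at 0.768, 0.489, 0.716 and 0.3805 CPM in T cells alone. It reached 560.1, 995, 115 and 166 CPM in the control and 1182, 542, 179, 341 and 1183 CPM in the STZ co-culture. Every co-culture library lay far above every library of T cells alone, and the co-cultures differed widely among themselves. Log2 fold changes were 9.82 (SE 0.67, adjusted p = 4.05e-07, edgeR) and 11.08 (SE 0.71, adjusted p = 3.14e-07). Rrm1, the large subunit, was already at 54.4 to 137 CPM in T cells alone and rose by 3.68 (SE 0.27, adjusted p = 6.66e-07) and 2.89 (SE 0.28, adjusted p = 5.79e-06). Per kilobase, Rrm2 was at 1.10% to 3.57% of Rrm1 in T cells alone, 20.1% to 397% in the control and 51.9% to 648% in the STZ co-culture. These percentages depend on the length used, which counts every annotated exon (11012 bases for Rrm1 and 2771 for Rrm2). In CPM without a length, Rrm1 was at 996 to 2271 in the control and 725 to 1437 in the STZ co-culture.

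Tk1, the thymidine kinase of dividing cells, had the smallest p of all members in both comparisons. It was at 1.26 to 3.28 CPM in T cells alone, 213 to 348 CPM in the control and 151 to 243 CPM in the STZ co-culture (6.62 and 6.08, adjusted p = 8.64e-09 and 2.41e-08, edgeR). Tyms, thymidylate synthase, rose by 5.28 and 4.80. Dut, the dUTPase that keeps uracil out of DNA, was at 1.66, 8.71, 1.81 and 2.28 CPM in T cells alone, 12.5, 18.3, 20.4 and 14.7 CPM in the control and 165, 11.4, 18.2, 13.9 and 79.01 CPM in the STZ co-culture. All 9 co-culture libraries lay above T cells alone, with STZ replicates 1 and 5 far above the rest (2.88, adjusted p = 0.0117, and 4.38, adjusted p = 0.000832, edgeR). Without those STZ libraries and replicate 2 of T cells alone the STZ value was 2.83 (adjusted p = 0.00441).

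Chromatin assembly factor 1, which places histones on new DNA, rose in both measured subunits. Chaf1a went from 0.8697 ± 0.893 CPM to 14.3 ± 1.11 and 16.1 ± 4.15 CPM (4.09, adjusted p = 0.00081, and 4.29, adjusted p = 0.000804, edgeR), and 52.5% of its exonic bases lie under Ubxn6. Chaf1b went from 24.3 ± 8.83 to 152 ± 25.5 and 140.4 ± 18.1 CPM (2.55, adjusted p = 5.05e-06, and 2.31, adjusted p = 1.69e-05).

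The RPA trimer, which coats single-stranded DNA, was unequal. Rpa3, the smallest subunit, was at 11.4 to 22.5 CPM in T cells alone, 77.3 to 139 CPM in the control and 67.9 to 89.5 CPM in the STZ co-culture. It rose by 2.44 (adjusted p = 6.64e-06, edgeR) and 1.89 (adjusted p = 6.91e-05), and Rpa2 by 1.74 and 1.27. Rpa1, the large subunit, was at 603, 476, 849.6 and 754 CPM in T cells alone, 1082, 772, 1251 and 934 CPM in the control and 657, 1064, 962, 875 and 699 CPM in the STZ co-culture. The groups overlapped, and neither 0.46 (interval 0.04 to 0.88, adjusted p = 0.0695) nor 0.03 (interval -0.42 to 0.49, adjusted p = 0.906) passed, although without replicate 3 of T cells alone the control value was 0.63 (adjusted p = 0.0224). In T cells alone Rpa1 had per kilobase 566% to 606% of the median of its 2 partners, and in the co-cultures 175% to 253%.

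Genes that work around this machinery were listed by function and described by their counts. Of 33 other replication factors, 21 rose and 1 fell in the control co-culture and 19 rose and 3 fell in the STZ co-culture. The 4 with the smallest p in the control comparison were Clspn, the fork protector claspin (log2 fold change 10.75 and 10.12), Top2a, topoisomerase II alpha (11.82 and 11.22), Pclaf, a PCNA-associated factor (9.78 and 9.05), and Wdhd1 (3.19 in the control co-culture). Of 16 other genes of nucleotide supply, 11 rose and 2 fell in the control and 13 rose and 2 fell in the STZ co-culture. Among them were Samhd1, which degrades deoxynucleotides (2.83 and 2.17), and Shmt1, a folate cycle enzyme (4.25 and 4.06).

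Of 20 tested E2F and retinoblastoma pathway genes, 12 rose and 3 fell in the control and 13 rose and 3 fell in the STZ co-culture. E2f8, an E2F repressor that is itself made in S phase, changed most clearly (12.30 and 11.97), with 0.0230 ± 0.0461 CPM in T cells alone (SD, n = 4) and 132 ± 24.2 CPM in the control co-culture. Cyclins Ccna2 (5.53 and 5.71) and Ccne2 (5.75 and 5.06) rose. Of 12 tested S-phase checkpoint genes, 5 rose and 3 fell in each comparison. Chek1, the checkpoint kinase, rose (4.52 and 3.81), as did the cyclin-dependent kinase inhibitor Cdkn1a (9.27 and 10.64), while Cdkn1b, the inhibitor p27 of resting cells, fell (-1.72 and -2.09). Of 10 genes that copy chromatin, 9 rose in the control and 7 in the STZ co-culture and none fell, with Uhrf1, the reader of hemimethylated DNA, at 6.62 and 7.14.

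The second question was whether the donor's STZ treatment changed the replication genes of the co-cultured T cells. In the fit of all 13 libraries 1 member was called, and in a fit of the 9 co-cultures alone 13 were. In the first fit, of 43 members, none rose and 1 fell (edgeR quasi-likelihood test over 15781 genes, adjusted p below 0.05), where 0.152% of all tested genes rose and 0.171% fell. At an unadjusted p under 0.05, 3 members were higher, where 7.99% of all tested genes were, and 11 lower, where 14.8% were. The median log2 fold change of the members was -0.32, beside -0.13 over all genes. Of the members 30 were below 0 and 13 above, where 8745 and 7035 of all 15781 tested genes were.

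The member called was Rfc4 (chr16:23113943-23127737, minus strand, GENCODE vM21 on GRCm38). It was at 216, 244, 437 and 299 CPM in control replicates 1 to 4 and at 144, 214, 241, 226 and 153 CPM in STZ replicates 1 to 5. The groups overlapped, since control replicate 1 lay below STZ replicates 3 and 4. The log2 fold change was -0.84 (SE 0.15, interval -1.17 to -0.51, adjusted p = 0.0467, edgeR). It was -0.77 within day 1 and -0.95 within day 2, with adjusted p of 0.127 and 0.151. The call was lost when any 1 of the 9 co-culture libraries was left out. Of its exonic bases 12.7% lie under Eif4a2 on the other strand.

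**Figure D4:**
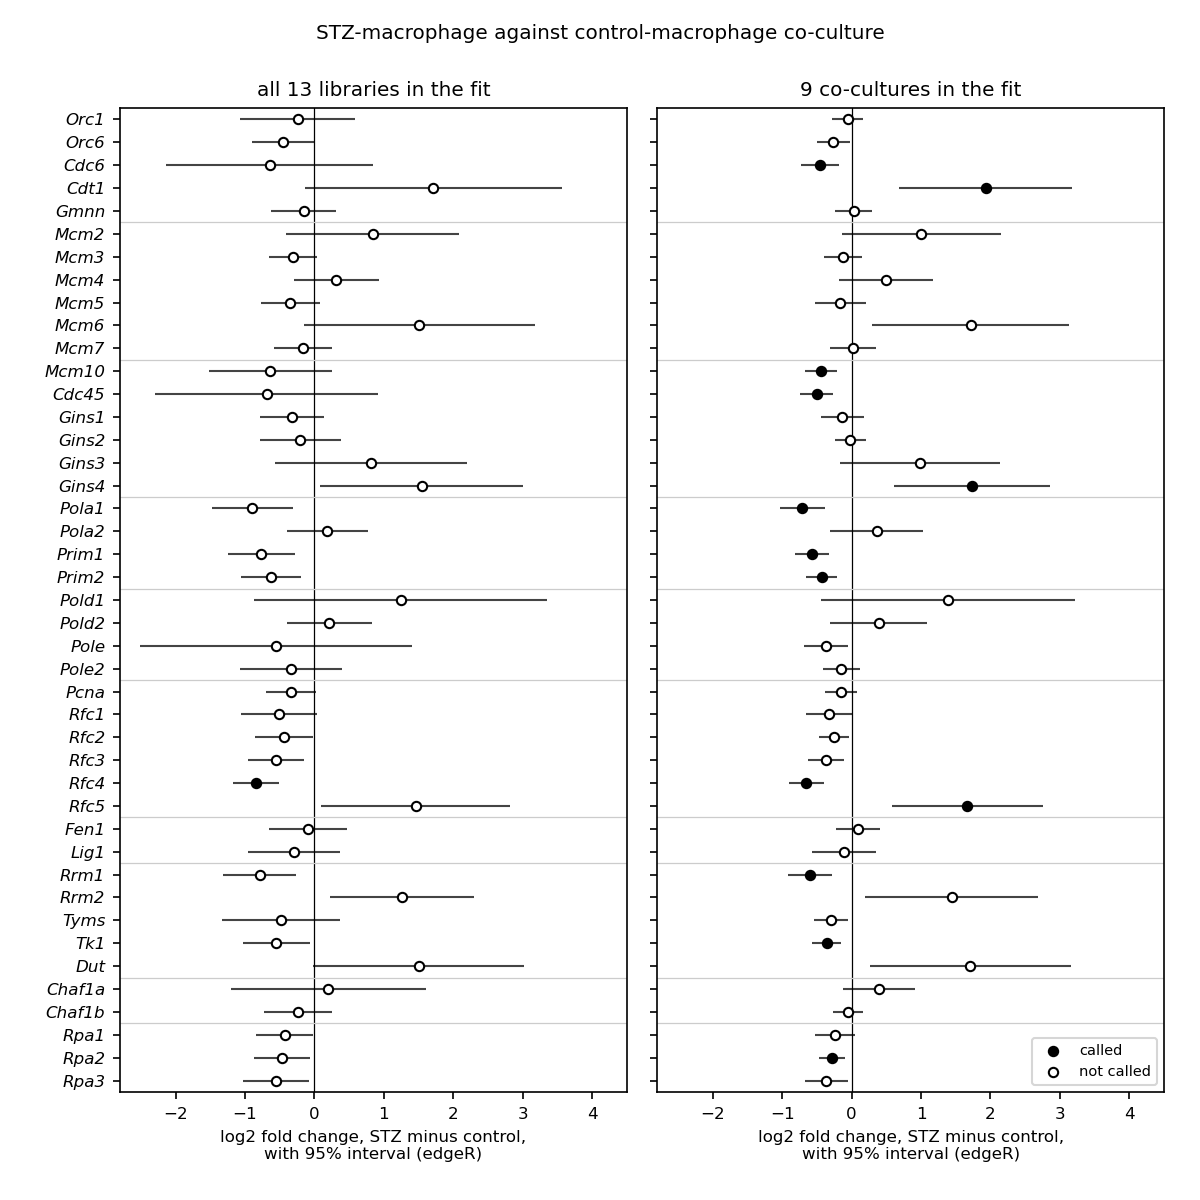
Log2 fold change of each member between the STZ and the control co-culture with its 95% interval, from the fit of all 13 libraries (left) and of the 9 co-cultures alone (right). Filled points passed an adjusted p of 0.05, which is Rfc4 alone on the left and 13 members on the right, and the widest intervals around values above 1 belong to Cdt1, Mcm6, Gins4, Pold1, Rfc5, Rrm2 and Dut.

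The members with the next smallest p had values below 0. Prim1, the primase catalytic subunit, was at 227, 227, 486 and 295 CPM in the control and 156, 245, 268, 237 and 164 CPM in the STZ co-culture (-0.76, SE 0.22, adjusted p = 0.145, edgeR). Pola1, whose values are given above, was at -0.90 (SE 0.27, adjusted p = 0.147), Rrm1 at -0.79 (SE 0.24, adjusted p = 0.149) and Prim2 at -0.62 (SE 0.20, adjusted p = 0.154). In each of these genes the highest library was control replicate 3 and the lowest was STZ replicate 1 or 5. Tyms was the only member with groups that did not overlap, at 387, 395, 409 and 393 CPM against 253, 343, 349, 314 and 263 CPM, and 5.08% of all tested genes were lower without overlap (2.46% higher). Its log2 fold change was -0.48 (interval -1.33 to 0.36, adjusted p = 0.446, edgeR). The annotation lists a pseudogene of Tyms that could take reads.

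More members were called without the libraries of T cells alone in the fit. Fitted on the 9 co-cultures alone, 3 members rose and 10 fell, where 10.1% of 14881 tested genes rose and 8.06% fell. Those that fell were Cdc6, Mcm10, Cdc45, Pola1, Prim1, Prim2, Rfc4, Rrm1, Tk1 and Rpa2, with log2 fold changes from -0.71 (Pola1) to -0.28 (Rpa2). Those that rose were Cdt1 (1.93, interval 0.69 to 3.18), Gins4 (1.73) and Rfc5 (1.66), which were high in STZ replicates 1 and 5. In that fit the median of the members was -0.14, beside 0.06 over all genes. The 95% intervals of members not called there, on the log2 scale, differed in width. Among the narrow ones were those of Gins2 (-0.24 to 0.21), Orc1 (-0.28 to 0.17) and Chaf1b (-0.26 to 0.16). Those of Mcm6 (0.30 to 3.14), Dut (0.27 to 3.16), Rrm2 (0.20 to 2.69) and Pold1 (-0.44 to 3.22) were wide and also included large differences.

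The members called in that fit changed with the libraries that stood apart, which were left out after the data had been seen. Without control replicate 3, 4 members were higher (Cdt1, Mcm6, Rfc5 and Dut) and 10 lower, beside 2191 and 999 of 15231 genes. Without STZ replicates 1 and 5, Mcm2, Mcm4, Gins3, Pola2, Pold1 and Pold2 had values from 1.27 (Pola2) to 4.16 (Pold1). With batch day as a term, both reduced fits repeat the within-day comparisons below and are not independent checks. Without control replicate 3, STZ replicates 1 and 5 are set against the controls of their day. Without STZ replicates 1 and 5, the remaining STZ libraries are set against control replicate 3 alone, the only control of that day. Cdc45, Pola1, Prim1 and Rfc4 had values below 0 in all 3 of these fits, and so did other members. Among those others, Mcm10 (-0.68 to -0.35), Prim2 (-0.66 to -0.37) and Rrm1 (-0.88 to -0.47) stayed below 0 over all 22 alternatives. Rfc4 was at -0.65 with all 9 libraries, -0.61 without control replicate 3 and -0.78 without the STZ libraries.

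Within batch days no member was called by edgeR. Of all tested genes 0.171% rose and 0.0444% fell on day 1, and 0% did either on day 2. On day 1 (3 control and 2 STZ libraries) 4 members were higher and 5 lower at an unadjusted p under 0.05, where 9.75% and 6.55% of all tested genes were. On day 2 (1 control and 3 STZ libraries) 6 were higher and 5 lower, where 8.48% and 5.54% of all tested genes were. The lone control of day 2 is assumed to vary like the other groups. The higher ones on day 1 were Dut (3.01), Mcm6 (3.02), Cdt1 (2.71) and Rfc5 (2.31), and on day 2 Pola2 (1.11), Pold1 (4.00), Gins3, Mcm2, Mcm4 and Pold2, by the edgeR test. A test of the STZ effect on day 2 against that on day 1 called none of the 43 members (lowest adjusted p = 0.257, Pola2, edgeR). It called 0.00634% of all tested genes lower and 0% higher, and 5 members were higher and 2 lower at an unadjusted p under 0.05, where 5.97% and 3.85% of all tested genes were.

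**Figure D5:**
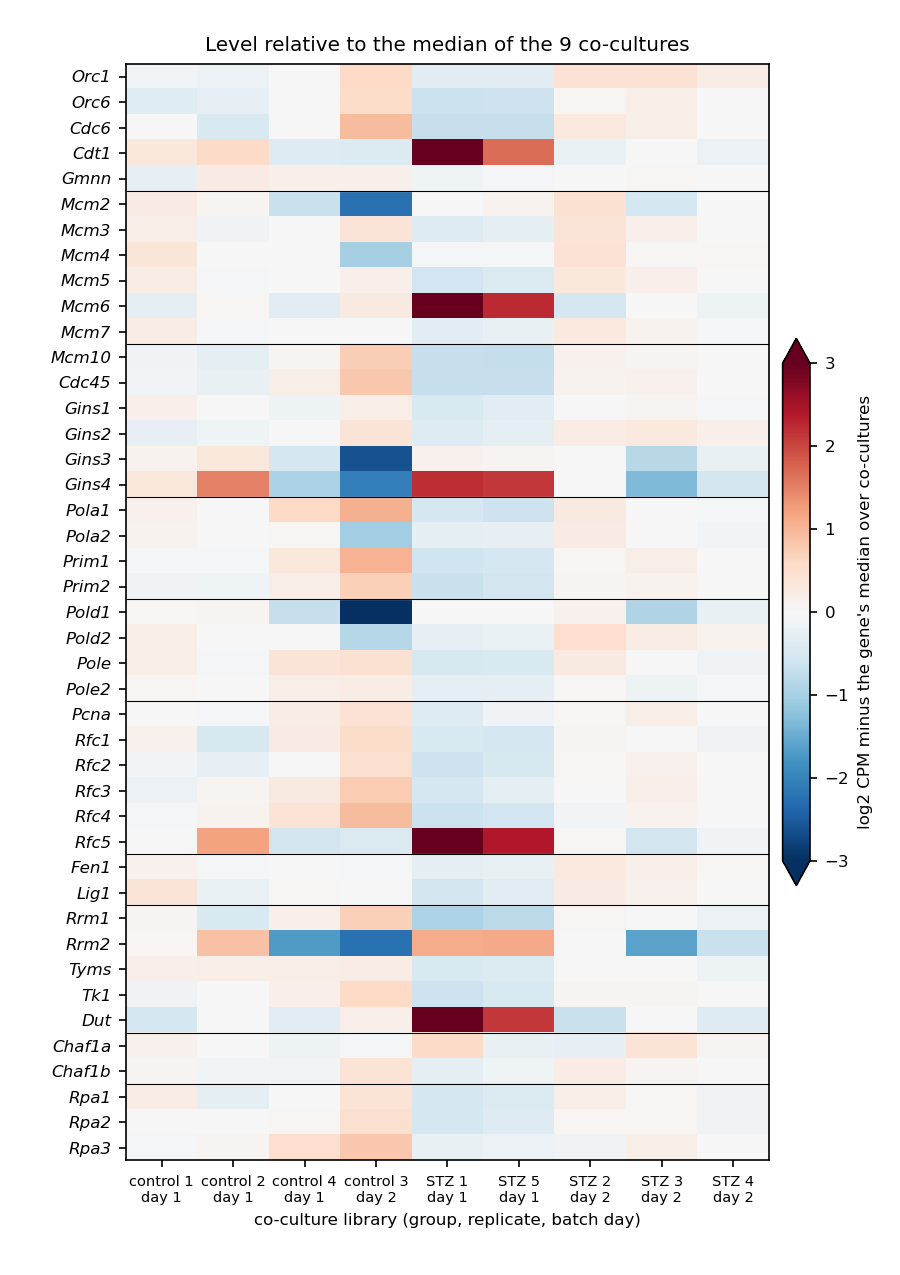
Log2 CPM of each member in the 9 co-cultures minus the median of that gene over them (red above, blue below, colours ending at 3 on either side), with libraries ordered by group and batch day. Cdt1, Mcm6, Gins4, Rfc5, Rrm2 and Dut are red in STZ replicates 1 and 5 while most other members are pale blue there, and Mcm2, Gins3, Gins4, Pold1 and Rrm2 are dark blue in control replicate 3.

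The libraries behind these values are described next, beside the shares over all tested genes. STZ replicates 1 and 5, the STZ libraries of day 1, were both above all 7 other co-cultures for 6 members (Cdt1, Mcm6, Gins4, Rfc5, Rrm2 and Dut). These are 14% of the members, not more than the 17.5% of all tested genes. Both were below for 28 members (65.1%), where 22.8% of all tested genes were. Replicate 2 of T cells alone was the highest of its group for 8 of 43 members, Cdt1, Mcm6, Gins4, Rfc5 and Dut among them, and for 27.7% of all tested genes. Without these 3 libraries, a choice made after the data had been seen, no member was called between the co-cultures. The median of the members was then 0.0024, beside 0.12 over all genes. With batch day as a term, that difference rests on control replicate 3, the only control of day 2.

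Control replicate 3 differed the other way for a few genes. Pold1 was there at 10.5 CPM against 125 to 213 CPM in the other controls, Mcm2 at 108 against 317 to 606, Gins3 at 7.03 against 30.6 to 54.5 and Gins4 at 5.18 against 11.1 to 61.1. These are the 4 members (9.3%) for which it was more than 4-fold below the mean of the other controls on the log2 scale. That share is close to the 7.53% of all tested genes. Rrm2, at 115 CPM against 166 to 995, lay just inside that limit. The deviation of this library from the other controls was negatively correlated with the GC content of the longest transcript (Spearman rho -0.52 over the 43 members and -0.36 over 15305 genes, as a description, since all points share the library). No cause was tested, and with 1 control library on day 2 the library and its day cannot be told apart.

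Batch day was compared over the co-cultures with the group as a term. Of 43 members 1 rose on day 2 (2.1% of all tested genes rose) and 1 fell (1.05% fell). Rfc4 rose by 0.68 (SE 0.15, adjusted p = 0.0446, edgeR), with 437 CPM in control replicate 3 and 214 to 241 CPM in the STZ libraries of day 2, against 216 to 299 and 144 to 153 CPM on day 1. Rrm2 fell (-1.96, SE 0.49, adjusted p = 0.0497), from 166 to 995 CPM in the controls and 1182 to 1183 CPM in the STZ libraries of day 1 to 115 CPM and 179 to 542 CPM on day 2. Both calls sat close to the threshold, that of Rfc4 was lost without any 1 of the 9 co-culture libraries, and that of Rrm2 without any 1 of them except control replicate 4 (adjusted p 0.0811 to 0.177). The fit of the 9 co-cultures alone called 15 members higher and 4 lower on day 2, where 13.3% and 16.3% of 14881 genes were, with Cdc6 (0.77), Prim1 (0.59) and Orc1 (0.52) among the higher and Gins4 (-2.86), Cdt1 (-2.27), Rfc5 (-2.24) and Rrm2 (-2.13) the lower ones.

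The surrounding gene lists gave little between the co-cultures. None of the 33 other replication factors, 16 nucleotide supply, 20 E2F and retinoblastoma, 12 checkpoint and 10 chromatin-copying genes was called between STZ and control co-culture by edgeR. The smallest p values belonged to Samhd1 (954 ± 195 CPM in the control and 529 ± 165 CPM in the STZ co-culture, log2 fold change -0.66, adjusted p = 0.134), Cad, which starts pyrimidine synthesis (1.87, adjusted p = 0.143), and Myc (2.64, adjusted p = 0.144). Macrophage markers had a median log2 fold change of 1.73 in the same comparison, none of 13 tested being called, and naive T cell genes one of -0.84 with Tcf7 called (-1.32, adjusted p = 0.0199). Their part in the members' values was not tested.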

How the data were processed

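Estimated counts per gene were deposited by the authors without normalization (13 columns, 0 unmatched; 11.0% of values are not whole). Reads were aligned to GRCm38, per the labels' protocols. The submitters' processing notes name DESeq2, while for aligner and counter the sources used here give no name. The cDNA kit named in the labels' protocols does not mark strand, so overlapping genes on opposite strands cannot be separated. A second table of log2 values, deposited by the authors after an adjustment of unstated method, served only as an alternative (limma 3.58.1).

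Counts were rounded and tested with edgeR 4.0.16 (R 4.3.3): filterByExpr by group, TMM, 1 term per group plus batch day, all 13 libraries, robust quasi-likelihood F test, Benjamini-Hochberg over 15781 genes, called below 0.05. The SE was derived from F, and intervals are 95%. CPM values use TMM-scaled library totals. Simulated data with a log2 change of 1 or 2 in the STZ comparison gave 24% and 99% of 100 changed genes each called, among 14922 genes. The simulation gave every gene the same dispersion and no day effect, so these shares are not those of the members. Totals of 17312119 to 61267763 counts put 3 counts at 0.0493 to 0.133 CPM, for counting error only, since no molecular identifiers are used.

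The 43 members, the other lists and the tests were chosen with earlier results of these data known. Fully described were members called between the co-cultures or days (otherwise the 5 with the smallest p), the largest and smallest fold change per role against T cells alone, every member not called there, and up to 4 genes per other list by p. Genes outside this rule were named after their values were seen.

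Replicate numbers are shared between groups. Deviations from the group means correlated by 0.161 to 0.352 in 4 of 4 same-numbered pairs of T cells alone and control co-culture. Different numbers reached 0.433, and 2 of 4 had their highest correlation with the same number. The data therefore do not settle a pairing. The main fit has no replicate term, and a replicate block was an alternative. Promoter sequences are RefSeq's (GRCm38.p6) and gene positions GENCODE vM21's. Alternatives were DESeq2 1.42.0, other scalings, filters, tools, terms and tables, and leaving out libraries.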

Additional observations from a re-analysis of the deposited data

Results flagged for a closer look

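In 7 of 129 gene and group combinations 1 library lay far from the others of its group (a Dixon gap test, by which chance gives about 1 in 20). In T cells alone, replicate 2 had Cdt1 at 40.0 CPM against 2.73 to 3.31 CPM in the other 3 libraries, and Mcm6 at 124 CPM against 15.6 to 19.6 CPM. Mcm10 was at 0.234 CPM in replicate 4 of T cells alone and had no count in the other 3. Its flag follows from those tied values, so the rate of 1 in 20 does not apply to it. Cdc45 was at 0 CPM in replicate 1 of T cells alone, against 6.22 to 9.73 CPM in the others. Control replicate 3 had Pola2 at 98.1 CPM against 204 to 218 CPM, and Rpa2 at 357 CPM against 252 to 260.3 CPM. STZ replicate 2 had Mcm4 at 1008 CPM against 721 to 767 CPM.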

How the results depend on the processing

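Against T cells alone, 34 to 41 members rose in the control and 35 to 42 in the STZ co-culture over all alternatives. None fell except Gins4 and Pold1 in the authors' deposited log2 table, where 2 members were lower in the control co-culture. In that table (limma) Gins3 was at -0.54, Gins4 at -2.78 and Pold1 at -2.50 in the control co-culture and Gins4 at -0.95 and Pold1 at -0.40 in the STZ co-culture, and on day 2 Rfc4 was at -0.12, Rrm2 at 0.010 and the median of the members at -0.067. The median against T cells alone in the control co-culture was 2.60 with library totals and 3.28 in that table. In the STZ co-culture it was 3.16 without a filter, 3.11 with day 1 alone and 3.39 without STZ replicates 1 and 5 and replicate 2 of T cells alone. Cdt1 in the control co-culture was at 1.69 without replicate 2 of T cells alone and at 1.25 (adjusted p = 0.0127, edgeR) without all 3 libraries, which were left out after the data had been seen, and from -0.69 to 1.69 with any 1 library left out. Without them the median of the members between the co-cultures was 0.0024, beside 0.12 over all genes.

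Between the co-cultures the 1 lower member became 0 with RLE factors, library totals, no filter, no day term, the authors' table, either day alone, the replicate block and without those 3 libraries. DESeq2 kept the count of 1, and the 2 co-culture groups alone gave 3 higher and 10 lower, or 4 and 10 without control replicate 3 and 6 and 4 without STZ replicates 1 and 5 (both added after the data had been seen). The fit without STZ replicates 1 and 5 rests on control replicate 3, the only control of day 2. The median of the members in it was -0.13, beside -0.012 over 14943 genes. Its counts of 6 and 4 were not set against the share of all genes, so they are not read as an excess. On day 2 the 1 higher and 1 lower member became 0 and 0 with RLE factors, library totals (median 0.115), no filter, the authors' table and the replicate block. DESeq2 gave 4 and 3, and the 9 co-cultures alone 15 and 4. Leaving out 1 library gave, between the co-cultures, 0 higher and 0 lower and medians of -0.33 to -0.13. On day 2 it gave 0 higher, 0 to 2 lower and medians of 0.18 to 0.41. Against T cells alone it gave 36 to 40 (medians 2.84 to 3.14) in the control and 38 to 42 (2.76 to 3.27) in the STZ co-culture. The replicate block gave 38 members higher in the control and 37 in the STZ co-culture. Mcm6, Gins4, Pold1 and Pole2 were then not called (adjusted p 0.087 to 0.193), and it changed no call in the control comparison. Same-numbered correlations with the STZ co-culture were -0.202 to 0.474 (control) and -0.415 to 0.331 (T cells alone), so a pairing was not settled there either.

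Over all genes, counts between the co-cultures ran from 0 to 2191 higher and 0 to 1200 lower over the alternatives. The scaling moved the median of all genes between the co-cultures by 0.10 (RLE) and 0.20 (library totals), and the members' median stayed below it by 0.19 in both. In simulation with the same dispersion for every gene, a log2 change of 1 was called for 24% of genes. Changes of that size could thus be missed between the co-cultures, and the share for the members' own spreads was not simulated.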

Other observations

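The authors' deposited log2 table holds all 43 members. In it Cdc6, Mcm10, Cdc45 and Pole stood at -0.29 to 1.69 in T cells alone and at 16.1 to 18.1 in the co-cultures. In T cells alone these genes shared the same value in replicate 1 (0.099) and in replicate 4 (1.15). In the counts of replicate 4, Pole was at 22.2 CPM and Mcm10 at 0.234 CPM. The low values of that table are therefore not read as measured levels. From the counts the edgeR log2 fold changes of the same genes in the control co-culture were 8.69, 11.98, 5.38 and 4.98. Mcm5 ran from 10.97 to 11.46 and from 14.08 to 15.95 in the authors' deposited table, and Rpa1 from 13.99 to 14.64 and from 14.18 to 15.65.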
